A study of Rattus norvegicus with 9 samples.

Results

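A set of 7 genes of antioxidant defence, of 32623 genes listed, was followed in brain tissue of rats by RNA sequencing. They were chosen for their known function by a rule that uses no measured value, though with earlier results of these data known: Nfe2l2, Nqo1, Gclc, Gclm, Sod1, Sod2 and Cat, each matched to 1 row of the count table by its Ensembl identifier. The table does not pair identifiers with symbols, so the symbols are those given with the identifiers when the set was defined. All 7 passed the filter on low counts and are among the 15402 genes tested. The rats were injected with Nano-patrol+NIR, rt-PA or saline 4.5 h after a modelling step, whose nature the labels leave out, and tissue was taken 3 days later. The clot-dissolving drug rt-PA is recombinant tissue plasminogen activator, which turns plasminogen into plasmin. The table and the sample descriptions call the rt-PA libraries uk, and the agent given to this group could not be settled from these sources. The series title presents the work as thrombolysis that is less prone to cause bleeding, and what Nano-patrol+NIR consists of is not said in the labels. All 3 groups went through the modelling step, each had 3 libraries, and no group without that step was analysed here. The sources used here give no strain, age, sex, brain region or hemisphere.

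Nfe2l2 encodes Nrf2, a transcription factor that is held in the cytoplasm and degraded until oxidants or electrophiles modify its partner Keap1. Freed Nrf2 enters the nucleus and binds antioxidant response elements, DNA motifs near genes that detoxify quinones and build glutathione. The superoxide dismutases turn superoxide, which leaks from mitochondria and is made by inflammatory cells, into hydrogen peroxide, and catalase breaks hydrogen peroxide down to water and oxygen. Nqo1, Gclc and Gclm are textbook Nrf2 targets, whereas Sod2 is also known as a target of the inflammatory factor NF-kB.

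The upstream sequences of Sod2, Gclc and Gclm are shown because Sod2 and Gclc had the 2 largest differences between rt-PA and the other groups, and because Gclm encodes the partner subunit of Gclc. They are the 250 bases before the annotated RefSeq start in build GRCr8 (Sod2 at chr1:50050169-50050418, minus strand, Gclc at chr8:87510226-87510475, plus strand, and Gclm at chr2:213031885-213032134, plus strand). Each runs 5′ to 3′ toward its gene, and capitals mark matches to 3 motifs on either strand.
Sod2: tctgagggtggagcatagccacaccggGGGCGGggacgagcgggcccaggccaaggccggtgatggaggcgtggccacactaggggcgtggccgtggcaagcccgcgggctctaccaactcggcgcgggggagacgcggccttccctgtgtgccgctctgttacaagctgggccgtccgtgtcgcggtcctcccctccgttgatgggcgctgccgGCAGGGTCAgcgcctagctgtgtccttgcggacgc
Gclc: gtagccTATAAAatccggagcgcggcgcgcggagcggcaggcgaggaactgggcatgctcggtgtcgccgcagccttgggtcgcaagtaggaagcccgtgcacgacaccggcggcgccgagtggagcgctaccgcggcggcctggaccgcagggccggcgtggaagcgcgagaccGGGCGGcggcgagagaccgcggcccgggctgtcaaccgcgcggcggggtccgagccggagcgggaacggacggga
Gclm: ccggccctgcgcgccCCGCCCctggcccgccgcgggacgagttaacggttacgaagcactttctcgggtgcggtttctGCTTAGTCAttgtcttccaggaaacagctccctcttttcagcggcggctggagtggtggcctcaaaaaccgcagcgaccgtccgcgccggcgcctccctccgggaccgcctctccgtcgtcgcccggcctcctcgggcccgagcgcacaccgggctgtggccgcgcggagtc
The motifs searched were TGACNNNGC, the core of the antioxidant response element, GGGCGG, the GC box bound by Sp1, and TATAAA, the TATA box. TGACNNNGC was found in 2 of the 7 upstream windows, on the minus strand, starting 35 bases before the start site in Sod2 and 172 bases before it in Gclm. Among 33469 RefSeq windows of the same length, 10.1% held it. Bases farther upstream than 250 were not searched, so a window without a match does not show that the gene lacks the element. GGGCGG was found in 6 of the 7 windows, all but Cat, and in 30.5% of all windows. The share of G and C in the 7 windows ran from 56.4% (Nqo1) to 74.8% (Gclc), and the windows compared were not matched for it. TATAAA was found in Nqo1, Gclc and Sod1, at 59, 244 and 28 bases before the start site, and in 12.9% of all windows. The 3 motifs did not overlap each other in Sod2, Gclc or Gclm, and a match is a description of the letters and not evidence of binding.

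Library totals ran from 13059048 to 14992109 counts, and the members held 135 to 3302 counts per library. Counting error weighs most on Nqo1 and Gclm, which had 135 to 299. One library of each group stood apart from the other 2. Across tested genes Nano-patrol+NIR 3 correlated with the rest of its group at r = 0.940 to 0.944, against 0.985 between the other 2. The corresponding values were 0.896 to 0.913 against 0.984 for rt-PA 3, and 0.926 to 0.931 against 0.990 for saline 1. Each r is taken across genes, and genes are not replicates. These 3 libraries also resembled each other across groups. On the first principal component of log2 CPM (35.9% of variance) Nano-patrol+NIR 3, rt-PA 3 and saline 1 lay at -45.9, -42.5 and -40.0, against -11.4 to 88.0 for the other 6. On the second (23.7%) they lay at -38.8, -39.2 and -28.8. On that component rt-PA 1 and rt-PA 2 lay near saline 1, at -26.5 and -23.4, and the remaining libraries at 26.1 to 52.0. On the third (16.4%) Nano-patrol+NIR 3 and rt-PA 3 lay at 33.3 and 26.7, and saline 1 apart from them at -75.2. Their TMM factors were 1.10, 1.05 and 1.11, against 0.935 to 0.990 for the other 6, and what they share was not tested. Brain markers could not be looked up, because the identifiers carry no symbols, so the labelled tissue was not checked. In bulk tissue, fewer cells of a type and less RNA per cell cannot be told apart.

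Levels are given as CPM, the count divided by the TMM-scaled library total, and are compared between libraries only, since CPM is not set per transcript length. Nfe2l2 (ENSRNOG00000001548), the regulator, had 17.5, 16.2 and 31.3 CPM in Nano-patrol+NIR 1 to 3, 29.9, 31.4 and 24.6 CPM in rt-PA 1 to 3 and 30.0, 17.7 and 23.2 CPM in saline 1 to 3. The rt-PA libraries were all above saline 2 and saline 3, but saline 1 lay within their range, as did Nano-patrol+NIR 3, so no pair of groups was separate. Nano-patrol+NIR 3 was 0.88 higher on the log2 scale than the mean of the other 2 libraries of its group, and 15.1% of all tested genes lay farther from that mean.

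Nqo1 (ENSRNOG00000012772) encodes a quinone reductase that uses NADPH or NADH to reduce quinones and keep them out of redox cycles. It had 15.4, 12.9 and 16.4 CPM in the Nano-patrol+NIR libraries, 10.8, 10.4 and 20.8 CPM in rt-PA and 14.3, 15.3 and 17.5 CPM in saline, in the order of the replicate numbers. rt-PA 1 and rt-PA 2 were the lowest of the 9 libraries and rt-PA 3 was the highest, so the rt-PA group enclosed both others.

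Gclc (ENSRNOG00000006302) and Gclm (ENSRNOG00000013409) encode the catalytic and the modifier subunit of glutamate-cysteine ligase, the rate-limiting enzyme of glutathione synthesis. Gclc had 54.8, 57.8 and 54.5 CPM in the Nano-patrol+NIR libraries, 85.6, 101 and 53.1 CPM in rt-PA and 56.9, 61.0 and 58.0 CPM in saline. The rt-PA group held both the 2 highest libraries and the lowest one, while the Nano-patrol+NIR and saline libraries all lay between 54.5 and 61.0 CPM. Gclm had 11.7, 10.2 and 16.1 CPM in the Nano-patrol+NIR libraries, 13.7, 12.1 and 15.4 CPM in rt-PA and 11.7, 12.1 and 15 CPM in saline. Its groups overlapped throughout, and replicate 3 was the highest library in each of them.

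Sod1 encodes the copper-zinc superoxide dismutase of the cytoplasm, Sod2 the manganese enzyme of mitochondria and Cat the catalase of peroxisomes. Sod1 (ENSRNOG00000002115) had 125, 123 and 117 CPM in the Nano-patrol+NIR libraries, 95.9, 111 and 177 CPM in rt-PA and 112, 130 and 121 CPM in saline. As with Nqo1, rt-PA 1 and rt-PA 2 were the 2 lowest libraries and rt-PA 3 was the highest. Sod2 (ENSRNOG00000019048) had 138, 137 and 124 CPM in the Nano-patrol+NIR libraries, 221, 251 and 192 CPM in rt-PA and 90.5, 141 and 130 CPM in saline. All 3 rt-PA libraries lay above the other 6, and the Nano-patrol+NIR range fell inside the saline range. Cat (ENSRNOG00000008364) had 49.7, 47.3 and 66.2 CPM in the Nano-patrol+NIR libraries, 39.7, 40.0 and 63.0 CPM in rt-PA and 41.6, 55.0 and 59.1 CPM in saline. rt-PA 1 and rt-PA 2 were the 2 lowest libraries for Cat too, and rt-PA 3 was second to Nano-patrol+NIR 3.

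**Figure D1:**
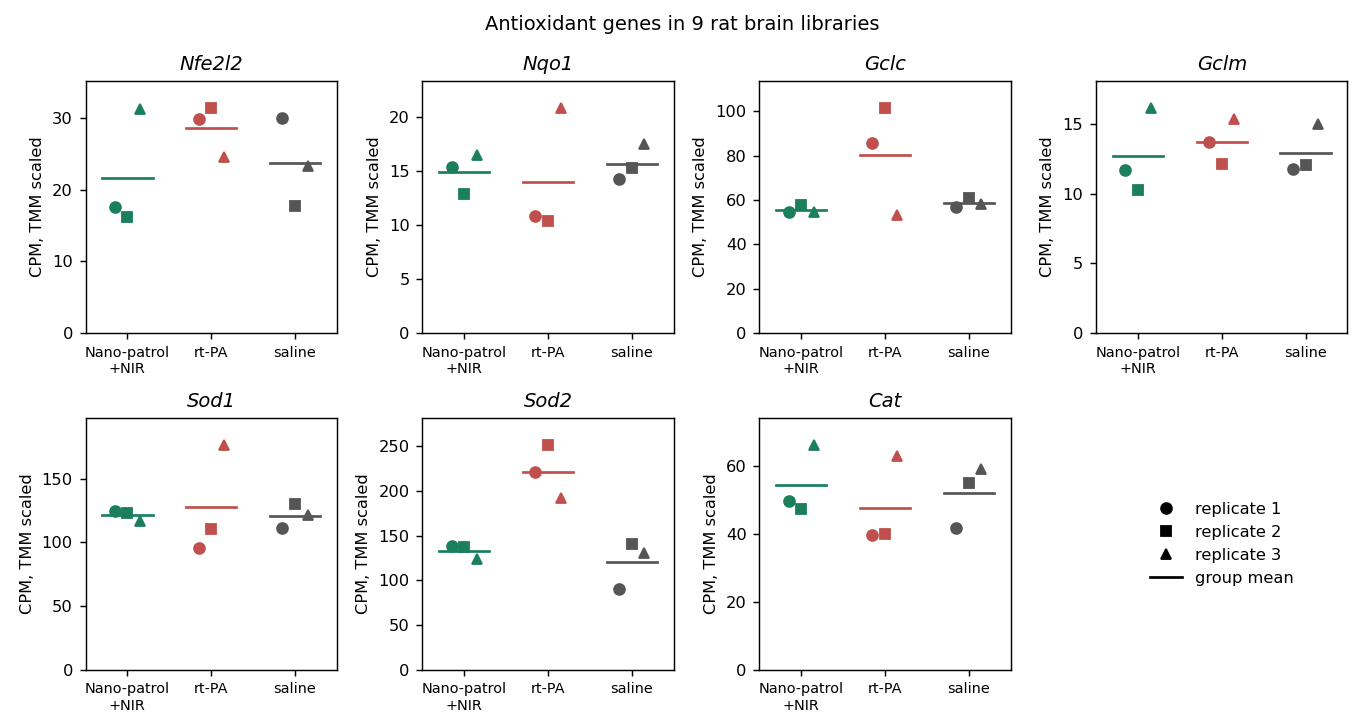
CPM with TMM scaling (y axis, from 0) of each gene in the 3 libraries of Nano-patrol+NIR, rt-PA and saline (x axis). Points are libraries, shaped by replicate number, and lines are group means. The 3 rt-PA libraries of Sod2 sit between 192 and 251 CPM, above the other 6, while for Gclc, Nqo1, Sod1 and Cat rt-PA 3 lies away from rt-PA 1 and rt-PA 2.

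The share of variance in log2 CPM that lay between groups was highest for Sod2. It was 80.6% for Sod2, 44.7% for Gclc and 26.6% for Nfe2l2. The values for Cat, Nqo1 and Gclm were 11.1%, 10.4% and 7.11%, and Sod1 had 0.298%. The median over all tested genes was 29.2%, so 2 of the 7 genes lay above it.

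The first comparison asked how these genes differed after rt-PA from their level after saline. Sod2, the mitochondrial superoxide dismutase, had the largest difference, at 221 ± 29.8 CPM in rt-PA against 121 ± 26.6 CPM in saline (mean ± SD, n = 3 per group). This is 1.84-fold (log2 fold change 0.88, SE 0.20, 95% interval of the fold 1.35 to 2.5). Its edgeR unadjusted p was 0.00169, rank 262 of the 15402 genes, and its edgeR adjusted p of 0.0993 missed the threshold of 0.05. Gclc had a mean of 80.0 ± 24.7 CPM in rt-PA, against 58.6 ± 2.15 CPM in saline (mean ± SD, n = 3 per group), a log2 fold change of 0.45 (SE 0.22, edgeR adjusted p = 0.33). Its SD in rt-PA exceeded the difference between the means. The log2 fold changes of the other 5 genes ran from -0.16 for Nqo1 to 0.27 for Nfe2l2, with edgeR adjusted p of 0.667 to 0.885. The 95% intervals of those 5 reached from 0.572-fold (Nqo1) to 1.92-fold (Nfe2l2).

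With edgeR 0 of the 7 genes passed the threshold for rt-PA against saline, where 0.00649% of all tested genes did. At an unadjusted p under 0.05, 1 of 7 (Sod2) counted, against 17% of all tested genes. The groups did not overlap for 1 of 7 (Sod2 again), against 19.5% of all tested genes. Of the 7, 5 were higher and 2 lower in rt-PA, with a median log2 fold change of 0.09, and all tested genes had a median of -0.01. DESeq2 called 1 of the 7, Sod2 (log2 fold change 0.91, DESeq2 adjusted p = 0.00155), where it called 6.95% of all genes. limma-voom called 0 of the 7 and 0% of all genes. limma-voom with a weight per library, which counts libraries that stand apart less, called 6 of the 7, where it called 45.2% of all genes. Its weights were estimated from these same libraries, and its SE for Sod2 was 0.098, against 0.20 in limma-voom without weights. In the weighted fit Sod2, Gclc and Nfe2l2 were higher in rt-PA (log2 fold changes of 0.77, 0.57 and 0.49), and Nqo1, Cat and Sod1 were lower (-0.60, -0.50 and -0.30).

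Whether edgeR called the 2 leading genes depended on rt-PA 3, while Sod2 was higher in rt-PA with or without it. Without it, edgeR called 2 of the 7 genes, Sod2 (log2 fold change 1.00, adjusted p = 0.014) and Gclc (0.70, adjusted p = 0.0105), both higher in rt-PA, and 13.5% of all tested genes. Without rt-PA 3, saline 1 and Nano-patrol+NIR 3, a choice made after the data were seen, edgeR called 5 of the 7 and 43.8% of all tested genes. In that fit Sod2, Gclc and Nfe2l2 were higher in rt-PA (log2 fold changes of 0.85, 0.70 and 0.63), and Nqo1 and Cat were lower (-0.58 and -0.47). Leaving out the libraries farthest from their group makes the remaining spread, and with it the p-values, too small. Weights estimated from the same libraries can make them too small as well. No other single library changed a call for these genes in this comparison. Without rt-PA 2 the log2 fold change of Gclc was 0.24 (edgeR adjusted p = 0.725), and the labels do not say why rt-PA 3 differs from rt-PA 1 and rt-PA 2.

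The second comparison set Nano-patrol+NIR against saline, and no member passed the threshold. Sod2 had a mean of 133 ± 8.21 CPM in the Nano-patrol+NIR group, against 121 ± 26.6 CPM in the saline group (mean ± SD, n = 3 per group), a log2 fold change of 0.14 (SE 0.20, 95% interval of the fold 0.811 to 1.5). Gclc had a mean of 55.7 ± 1.83 CPM in the Nano-patrol+NIR group, against 58.6 ± 2.15 CPM in the saline group (mean ± SD, n = 3 per group), a log2 fold change of -0.07 (SE 0.22). The log2 fold changes of the 7 genes ran from -0.13 for Nfe2l2 to 0.14 for Sod2, and edgeR gave each of the 7 an adjusted p of 1.00. edgeR called 0 of the 7, where 0.00649% of all genes passed, and 0 of the 7 had an unadjusted p under 0.05, against 5.89% of all genes. The ranges of the groups overlapped for all 7, while they did not overlap for 14.5% of all genes. DESeq2 also called 0 of the 7, where it called 0.867% of all genes, limma-voom 0 of the 7 and 0% of all genes, and limma-voom with library weights 0 of the 7 and 5.9% of all genes. A p that misses the threshold does not show equal levels. The widest of the 7 intervals, that of Nfe2l2, ran from 0.577-fold to 1.46-fold. These intervals draw on the spread of all 9 libraries, rt-PA included. In an edgeR fit of only the 6 libraries compared, the SE was 0.11 for Gclc and 0.33 for Nfe2l2. With all 9 libraries these were 0.22 and 0.29. The SE from 6 libraries was also higher for Gclm, and lower for the remaining genes.

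The third comparison set Nano-patrol+NIR against rt-PA and shares its rt-PA libraries with the first, so the 2 are not independent. The values given for it come from fits that ignore any pairing of libraries by replicate number. Sod2 had a mean of 133 ± 8.21 CPM in the Nano-patrol+NIR group, against 221 ± 29.8 CPM in the rt-PA group (mean ± SD, n = 3 per group), 0.601-fold (log2 fold change -0.73, SE 0.20, 95% interval of the fold 0.441 to 0.819). Each Nano-patrol+NIR library was below each rt-PA library, but with an edgeR adjusted p of 0.211 the threshold was missed. Gclc had a mean of 55.7 ± 1.83 CPM in the Nano-patrol+NIR group, against 80.0 ± 24.7 CPM in the rt-PA group (mean ± SD, n = 3 per group), a log2 fold change of -0.52 (SE 0.22, edgeR adjusted p = 0.341), with overlapping libraries. Nfe2l2 had a mean of 21.7 ± 8.32 CPM in the Nano-patrol+NIR group, against 28.6 ± 3.58 CPM in the rt-PA group (mean ± SD, n = 3 per group), a log2 fold change of -0.40 (SE 0.29, edgeR adjusted p = 0.585). The other 4 genes had log2 fold changes of -0.11 for Gclm to 0.19 for Cat.

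For Nano-patrol+NIR against rt-PA, edgeR called 0 of the 7 and 0% of all tested genes. At an unadjusted p under 0.05, 2 of 7 counted (Sod2 at 0.00485 and Gclc at 0.0401 in edgeR), against 13.8% of all genes. The groups did not overlap for 1 of 7 (Sod2), against 17.4% of all genes. DESeq2 called 1 of the 7, Sod2 (log2 fold change -0.76, DESeq2 adjusted p = 0.0177), and 4.12% of all genes. limma-voom called 0 of the 7, where it called 0.00649% of all genes, and with a weight per library it called 3 of the 7 and 39.1% of all genes. Without rt-PA 3, edgeR called Sod2 (log2 fold change -0.86, adjusted p = 0.0238) and Gclc (-0.78, adjusted p = 0.00679), both lower in Nano-patrol+NIR, and 13.1% of all genes. Without rt-PA 3, saline 1 and Nano-patrol+NIR 3 it called these and Nfe2l2 (-0.90), 3 of the 7, and 40.5% of all genes.

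**Figure D2:**
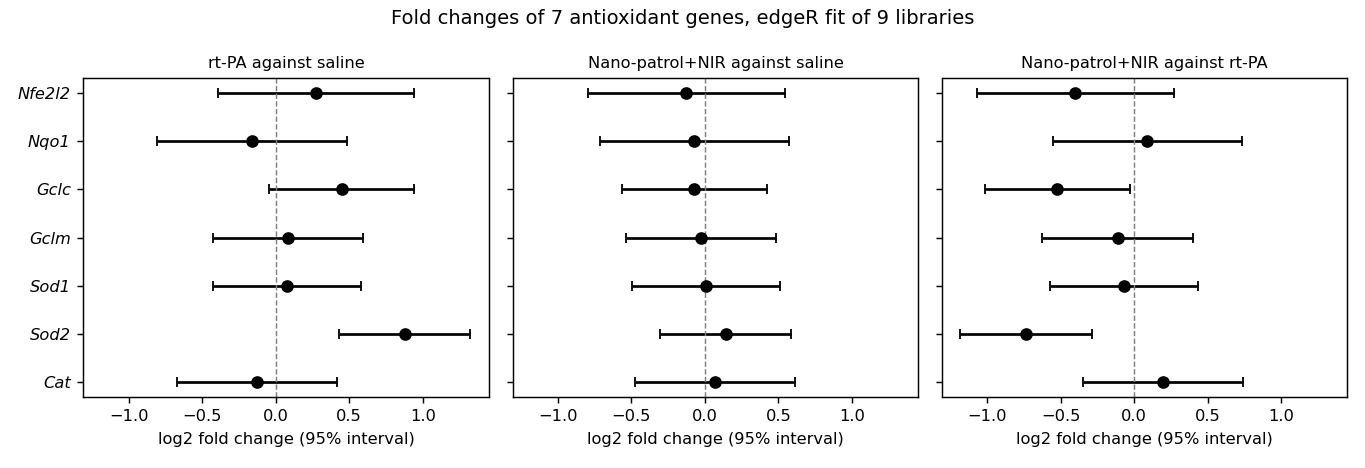
Log2 fold changes of the 7 genes (points) with 95% intervals (bars) in the 3 comparisons (rt-PA against saline, then Nano-patrol+NIR against saline and against rt-PA), from the edgeR fit of all 9 libraries. The interval of Sod2 lies above 0 for rt-PA against saline and below 0 for Nano-patrol+NIR against rt-PA, where that of Gclc also lies below 0, and all 7 intervals cross 0 for Nano-patrol+NIR against saline. The intervals are not adjusted for the number of genes tested.

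Within the rt-PA group the 7 genes split by how rt-PA 3 lay relative to the other 2 libraries. On the log2 scale rt-PA 3 was higher for Nqo1 (0.97), Sod1 (0.78), Cat (0.66) and Gclm (0.25), and lower for Gclc (-0.81), Nfe2l2 (-0.32) and Sod2 (-0.30). For Nqo1, Sod1, Cat, Gclc and Nfe2l2 the distance was at least 3 times the gap between rt-PA 1 and rt-PA 2. The share of all tested genes with such a distance was not taken. rt-PA 3 was picked as the library least like its group, so distances larger than the gap are partly built in. Over all tested genes the median size of this distance was 0.50, against a median gap of 0.21. Of these genes, 25.9% lay farther out than Nqo1, the farthest of the 7. Nano-patrol+NIR 3 was likewise higher than its group for Gclm (0.55), Cat (0.45) and Nqo1 (0.22). Unlike rt-PA 3 it was higher for Nfe2l2 (0.88), and it lay within 0.16 of the others for Gclc, Sod1 and Sod2. Saline 1 was higher for Nfe2l2 (0.56) and lower for Sod2 (-0.58) and Cat (-0.45).

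**Figure D3:**
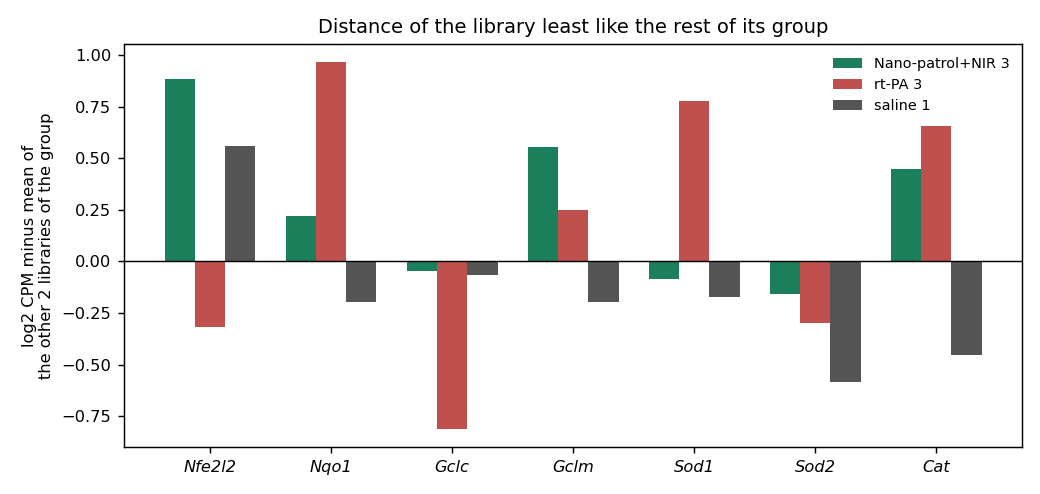
Log2 CPM of Nano-patrol+NIR 3, rt-PA 3 and saline 1, the library of each group least like the other 2, minus the mean of those 2 (y axis), for each gene (x axis). Bars above 0 are genes higher in that library, and rt-PA 3 ranges from -0.81 for Gclc to 0.97 for Nqo1.

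Count ratios of 2 genes in the same library do not depend on how libraries are scaled, and the pairs were chosen after their values were seen. The ratio of Sod2 to Sod1, mitochondrial over cytoplasmic dismutase, was 1.11, 1.11 and 1.06 in Nano-patrol+NIR, 2.31, 2.28 and 1.09 in rt-PA and 0.811, 1.08 and 1.07 in saline. rt-PA 1 and rt-PA 2 had a higher ratio than every other library, whereas rt-PA 3 fell next to the highest saline library, and the ratio ranges of rt-PA and saline were separate by a narrow margin. The ratio of Sod2 to Cat was 2.79, 2.90 and 1.87 in Nano-patrol+NIR, 5.57, 6.29 and 3.05 in rt-PA and 2.17, 2.56 and 2.21 in saline. All 3 rt-PA libraries had a higher Sod2 to Cat ratio than the other 6. They already lay above the other 6 for Sod2 itself, so the ratio is not separate support. In an exact two-sided permutation test of log2 ratios, rt-PA against saline gave p = 0.1 for both ratios, the smallest p that 3 against 3 libraries allow. Nano-patrol+NIR against rt-PA gave p = 0.1 for Sod2 to Cat and 0.3 for Sod2 to Sod1 in the same exact test.

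The ratio of Gclc to Gclm, catalytic over modifier subunit, was 4.68, 5.64 and 3.38 in Nano-patrol+NIR, 6.23, 8.38 and 3.45 in rt-PA and 4.84, 5.04 and 3.87 in saline. rt-PA 1 and rt-PA 2 had the 2 highest ratios, rt-PA 3 the second lowest, and the exact permutation p was 0.5 for rt-PA against saline and 0.4 for Nano-patrol+NIR against rt-PA. The ratio of Gclc to Nqo1, both Nrf2 targets, was 3.56, 4.48 and 3.32 in Nano-patrol+NIR, 7.92, 9.79 and 2.55 in rt-PA and 3.99, 4 and 3.32 in saline. Each rt-PA library lay outside the range of the other 6, above it in rt-PA 1 and rt-PA 2 and below it in rt-PA 3, so the groups overlapped. The ratio of Sod2 to Nqo1 was 9, 10.6 and 7.53 in Nano-patrol+NIR, 20.4, 24.3 and 9.22 in rt-PA and 6.35, 9.23 and 7.46 in saline, so rt-PA 3 again lay among the other groups. A set of 5 ratios was computed in all, with 3 comparisons each, and no exact p can fall below 0.1 in this design, so none reaches 0.05 before or after adjustment.

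**Figure D4:**
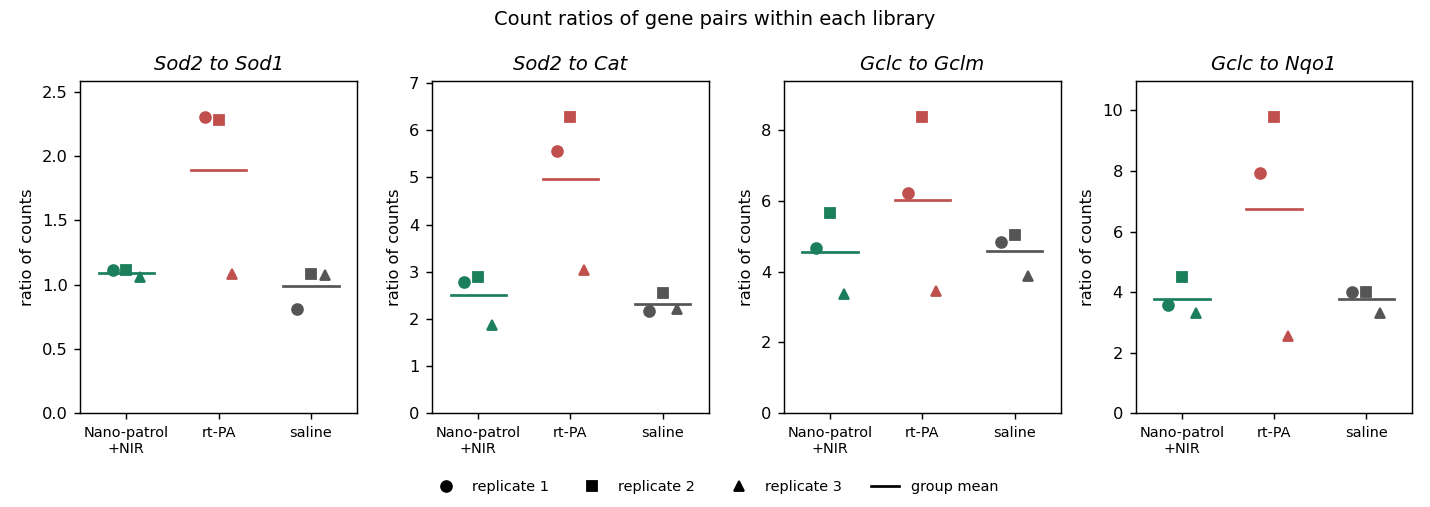
Ratio of the counts of 2 genes within each library (y axis, from 0) for Sod2 to Sod1, Sod2 to Cat, Gclc to Gclm and Gclc to Nqo1 in Nano-patrol+NIR, rt-PA and saline (x axis). Points are libraries, shaped by replicate number, and lines are group means. rt-PA 1 and rt-PA 2 lie above all other libraries for each pair, and rt-PA 3 lies near or below the other groups except for Sod2 to Cat.

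The genes most like Sod2 over the 9 libraries were ENSRNOG00000014387 (Pearson r = 0.988 of log2 CPM) and ENSRNOG00000010944 (r = 0.981), among 11860 genes averaging at least 5 CPM. The highest r of another gene was 0.991 for Gclc and 0.948 for Gclm. For Nfe2l2, Nqo1, Sod1 and Cat it was 0.968, 0.963, 0.976 and 0.963. Each is the top value among 11860 genes over only 9 libraries, so a high r is partly built in. All these points share the same 9 libraries, including the ones that stand apart, and the table gives no symbol for the identifiers. Another 57 genes of the pathway, among them the glutathione, thioredoxin and NADPH enzymes and the Nrf2 partners, had been listed by symbol. None could be matched to an identifier, so how the rest of the pathway moved was not analysed here.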

How the data were processed

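RNA was taken with Trizol, selected by poly(A), fragmented and made into cDNA libraries, per the labels' protocols. Tools named, without roles, are StringTie 1.3.1, HISAT2, Bowtie2 2.2.8 and fastp 0.18.0, per the submitters' processing notes. How reads were counted, the strand setting, build and annotation: not given in the sources used here. Raw read counts were deposited by the authors as 1 table, per gene and library, and reads shared with overlapping or antisense genes cannot be told apart in it.

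Groups came from the sample titles, and uk columns were matched to rt-PA through the descriptions. The labels do not say that libraries come from separate animals, so p-values measure the spread between these samples only.

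Counts were fitted in R 4.3.3 with edgeR 4.0.16 (filterByExpr, TMM, robust quasi-likelihood F test, 1 mean per group over all 9 libraries), and p-values were adjusted by Benjamini-Hochberg over all 15402 tested genes, with 0.05 as threshold. Standard errors are the log2 fold change over the square root of F, and 95% intervals use the test's degrees of freedom. log2 CPM used a prior count of 2. Alternatives were DESeq2 1.42.0, limma-voom with and without library weights (limma 3.58.1), other scalings, filters and thresholds, fewer libraries and a replicate block. Each test was checked on simulated counts. These were drawn independently for each gene and held no library that stands apart, so the check does not cover that feature of these data. Named genes were all 7 members and, by a rule on likeness, the 2 tested genes of at least 5 mean CPM closest to a member. In Nano-patrol+NIR against rt-PA, libraries of equal number deviated together from their group means (r of 0.113, 0.254 and 0.278 across genes). The last r joins rt-PA 3 and Nano-patrol+NIR 3, which both stand apart from their groups. Deviations balance out within a group, so the other r values are tied to this one. Libraries of unequal number were not compared as a baseline. These r values therefore cannot show that the numbers pair libraries, and the labels do not say so. The comparison was treated as possibly paired, and only the fit with a replicate block uses the numbers. Against saline, r was -0.362 to 0.228 over 6 pairs, and the numbers were not taken as pairs. Members and lists were chosen with earlier results of these data known.

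Upstream sequences were matched by symbol for 7 of 7 members in RefSeq's table. Of 47357 genes in the reference table, 0 carry an Ensembl identifier, so the 57 pathway and 44 marker symbols were not used.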

Additional observations from a re-analysis of the deposited data

How the results depend on the processing

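The numbers of the 7 members called were 0 for rt-PA against saline, 0 for Nano-patrol+NIR against saline and 0 for Nano-patrol+NIR against rt-PA with edgeR. Other scalings, filters, thresholds, limma-voom and fits of only the 6 libraries compared left each number at 0. In the comparisons with rt-PA (against saline, then Nano-patrol+NIR against it) DESeq2 gave 1 and 1, limma-voom weighted per library 6 and 3, and edgeR without the 3 libraries that stand apart (Nano-patrol+NIR 3, rt-PA 3 and saline 1) 5 and 3, a fit added after the data were seen. Fits without 1 library gave 0 to 2 for both, the higher value only without rt-PA 3. The number for Nano-patrol+NIR against saline was 0 in all alternatives.

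Over all 399 combinations of a gene, a comparison and an alternative, direction and call stayed as they were in 341, the gene passed the threshold with its direction kept in 22, and the sign turned in 36. For rt-PA against saline the sign turned with library weights for Gclm (-0.047) and Sod1 (-0.30, limma-voom adjusted p = 0.0362), and without the 3 libraries for Gclm (-0.021) and Sod1 (-0.24). Fits without 1 library gave -0.54 to 0.014 for Nqo1, -0.35 to 0.0081 for Cat and -0.20 to 0.27 for Sod1. For Nano-patrol+NIR against saline it turned with library weights for Sod1 (-0.0063) and Cat (-0.21), without the 3 libraries for Sod1 (-0.013) and Cat (-0.23), and with library totals alone for Gclm (0.024). Fits without 1 library gave -0.49 to 0.098 for Nfe2l2, -0.24 to 0.11 for Gclm, -0.034 to 0.044 for Sod1, -0.15 to 0.021 for Nqo1, -0.097 to 0.16 for Cat and -0.014 to 0.25 for Sod2. For Nano-patrol+NIR against rt-PA the sign of Sod1 turned with library weights (0.29) and without the 3 libraries (0.22). Fits without 1 library gave -0.090 to 0.46 for Nqo1 and -0.27 to 0.20 for Sod1. Sod2 and Gclc kept their direction in all 19 alternatives of both comparisons with rt-PA. The log2 fold change of Sod2 for rt-PA against saline ran from 0.74 to 1.02 (adjusted p 0.000179 to 0.32), and that of Gclc from 0.24 to 0.70 (adjusted p 0.000893 to 0.725). What causes these differences between settings was not tested.

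With the replicate number as a block, 0 of the 7 members were called in each comparison, and Sod2 had a log2 fold change of 0.88 (edgeR adjusted p = 0.183) for rt-PA against saline. For Nano-patrol+NIR against rt-PA, where the numbers may pair libraries, the block gave Sod2 a log2 fold change of -0.73 (edgeR adjusted p = 0.343). This block covered all 9 libraries, so it also paired saline, whose numbers were not taken as pairs. The block changed no call of a member. Depth limits most the genes with the fewest counts, Nqo1 and Gclm, at 135 to 299 per library.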
